A study of Mus musculus with 18 samples.

Results

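The genes described here were 38 mouse genes of cholesterol and fatty acid synthesis and of the control of these pathways, out of 55414 genes in the count table. They were listed by symbol and matched to Ensembl identifiers, and the list was chosen in part by measured values, namely the higher counts of *Acat2* and *Aacs* with *Fmr1* siRNA B and with *Zfp598* siRNA B than with Scramble siRNA B. For this reason those 2 contrasts are given below as a description, without a p-value for any gene of the list, and *Acat2* and *Aacs* have a p-value only where no siRNA B library enters the contrast. The other 36 genes were listed for their function. Every contrast that holds a Scramble, *Fmr1* or *Zfp598* siRNA B library shares libraries with the choice of the list. Counts and p-values in such contrasts are therefore not independent of that choice. By role, 7 genes act in the mevalonate pathway, 11 in the steps from farnesyl diphosphate to cholesterol, 5 in control by the sterol regulatory element binding proteins (SREBPs), 9 in fatty acid synthesis and desaturation, 2 in sterol transport inside the cell and 4 in sterol export and its control by liver X receptors. Of the 38 genes, 37 passed the filter on low counts. *Abcg1*, a sterol exporter, did not pass and had at most 8 reads in any library.

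The RNA came from N2A cells, a mouse neuroblastoma line, 72 h after transfection with 1 of 6 siRNAs. There were 2 siRNAs, named A and B, for each of 3 conditions: Scramble KD (control siRNAs without a target), *Fmr1* KD (the gene for the translational repressor FMRP) and *Zfp598* KD (the gene for a factor that recognises collided ribosomes). Each siRNA had 3 libraries of rRNA-depleted total RNA from replicate transfections, so that a condition had 6 libraries and the experiment 18. All groups were the same line, transfected in the same way and harvested at the same time, and no group was left without siRNA. The study pooled the siRNAs of a condition to gain power and asked which transcripts increase in both knockdowns. The letters are names only: nothing in the labels ties an *Fmr1* or *Zfp598* siRNA to the Scramble siRNA of its letter.

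Cholesterol and fatty acids are both built from cytosolic acetyl-CoA. The enzymes of both pathways are known to be transcribed together under the SREBPs, which are held in the endoplasmic reticulum by the Insig proteins when sterols are plentiful and are carried to the Golgi by *Scap* when sterols are low. Liver X receptors act in the opposite situation and turn on genes for sterol export, and the brain makes its own cholesterol because lipoproteins of the blood do not enter it.

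The libraries held 7674724 to 15414590 counts. *Fmr1* mRNA read 15.7 to 22.0 CPM (the usual per-library scaling of counts, here with TMM factors) with *Fmr1* siRNA A, 25.2 to 27.0 CPM with *Fmr1* siRNA B and 50.3 to 74.2 CPM in the other 12 libraries. *Zfp598* mRNA read 32.0 to 48.5 CPM with its own siRNAs and 90.7 to 128 CPM elsewhere, so that both targets separated their libraries from the rest without overlap. All 10 markers of the neuroblast line were detected in every library, with a summed level of 1237 to 1824 CPM. Markers of fibroblasts summed to 6.45 to 19.1 CPM, those of glia to 17.3 to 34.5 CPM and those of hepatocytes to at most 0.470 CPM. Markers of pluripotent stem cells, of which 9 of 10 were matched, summed to at most 8.74 CPM except in *Fmr1* siRNA B library 1, with 43.8 CPM. *Zfp598* siRNA A libraries 2 and 3 and Scramble siRNA A library 1 also stood apart, with 15.2%, 25.8% and 11.1% of their counts in the most counted feature. Counts without these libraries are given where they change a statement. Where a count under another setting has no share of all genes tested beside it, it was not compared with all genes under that setting.

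Levels of these genes differed between the siRNAs of a condition. *Fmr1* siRNA B gave the highest mean level for 21 of 37 genes. *Fmr1* siRNA A gave the lowest mean for 19 genes and was among the 2 lowest for 34, and Scramble siRNA B gave the lowest mean for 10 genes and was among the 2 lowest for 21. These counts describe the order of means and carry no test. The mean deviation of the 18 sterol synthesis genes (mevalonate pathway and later steps) from each gene's own mean over all libraries, on the log2 scale, was 0.39, 0.24 and 0.20 with Scramble siRNA A against -0.34, -0.27 and -0.57 with Scramble siRNA B. It was -0.40, -0.37 and -0.43 with *Fmr1* siRNA A against 0.21, 0.50 and 0.45 with *Fmr1* siRNA B. With *Zfp598* siRNA A it was 0.25, -0.17 and 0.08, and with *Zfp598* siRNA B -0.00, 0.08 and 0.15. The siRNAs of a condition did not overlap for Scramble KD or *Fmr1* KD and lay in opposite order there, with siRNA A the higher of the Scramble siRNAs and siRNA B the higher of the *Fmr1* siRNAs, while the *Zfp598* siRNAs overlapped.

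**Figure D1:**
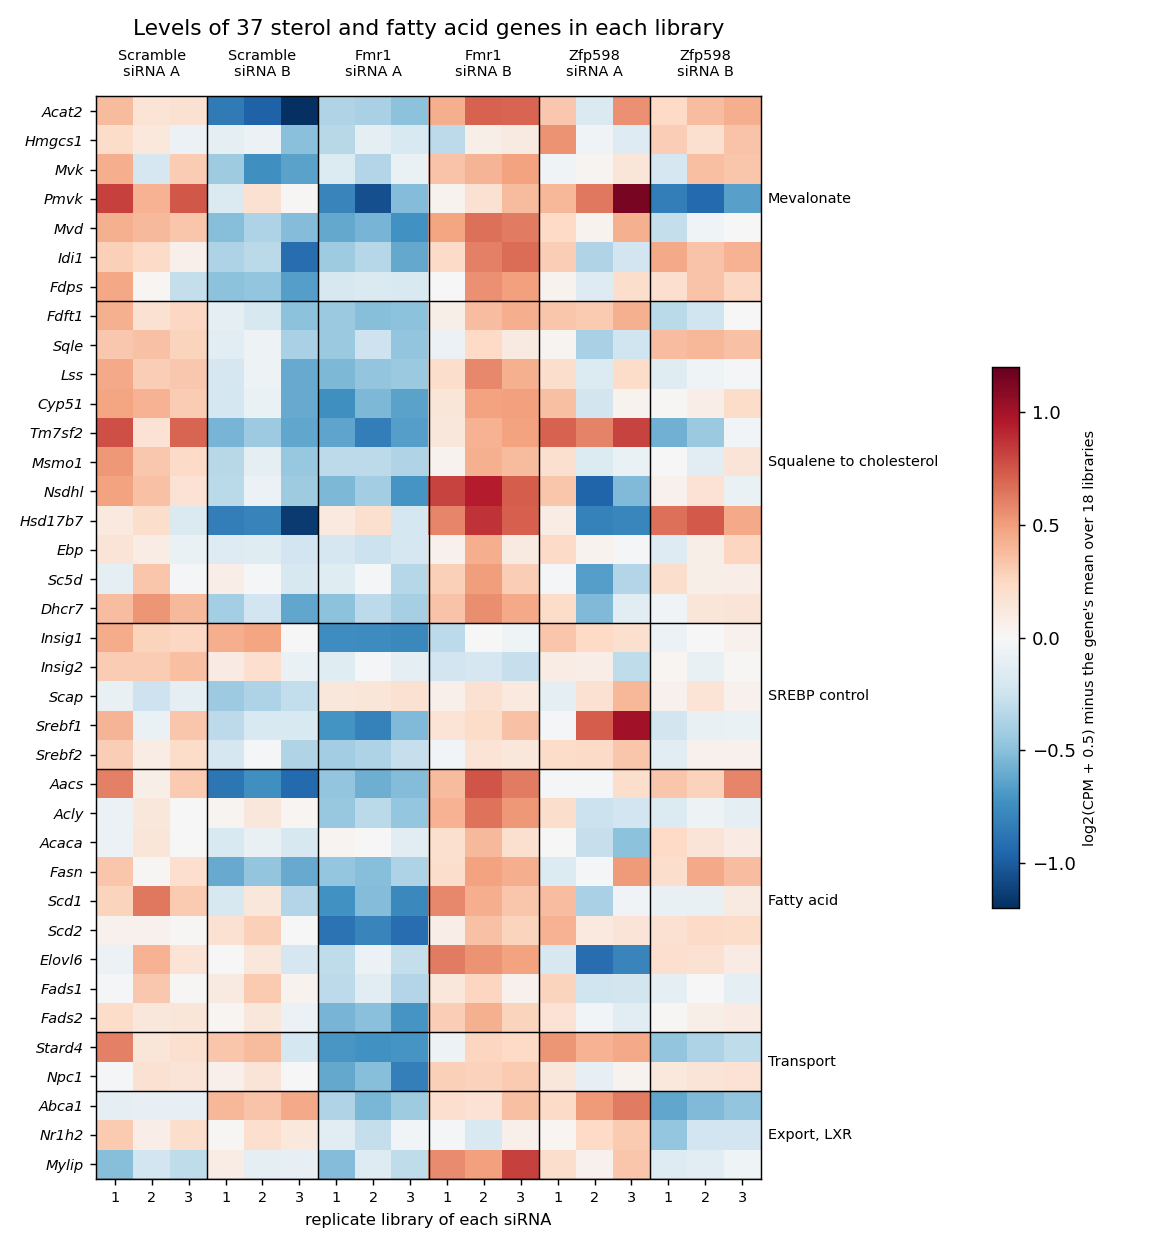
Level of 37 genes (rows, by role) in 18 libraries (columns, by siRNA), as log2(CPM + 0.5) minus the mean of the gene over all libraries, with colours that saturate at the ends of the scale. Most sterol and fatty acid genes are low in the 3 Fmr1 siRNA A libraries and high in the 3 Fmr1 siRNA B libraries, and the Scramble siRNA B libraries are low mainly for sterol synthesis.

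Other measures moved in the same libraries. A list of 21 proliferation genes had mean log2 deviations of -0.53 to -0.35 with Scramble siRNA A, 0.31 to 0.54 with Scramble siRNA B, -0.44 to -0.42 with *Fmr1* siRNA A, 0.28 to 0.36 with *Fmr1* siRNA B, -0.09 to -0.04 with *Zfp598* siRNA A and 0.18 to 0.26 with *Zfp598* siRNA B. Thus the siRNA B libraries of each condition had more of the proliferation transcripts than its siRNA A libraries, whereas sterol synthesis genes were lower with Scramble siRNA B and higher with *Fmr1* siRNA B. The summed neuroblast markers read 1733 to 1824 CPM with Scramble siRNA A, 1237 to 1369.6 CPM with Scramble siRNA B, 1326 to 1414 CPM with *Fmr1* siRNA A, 1444 to 1630.4 CPM with *Fmr1* siRNA B, 1644 to 1686 CPM with *Zfp598* siRNA A and 1525 to 1710.0 CPM with *Zfp598* siRNA B. Like the sterol genes, they were lowest with Scramble siRNA B and *Fmr1* siRNA A. The part of either list in the levels of the sterol and fatty acid genes was not tested, and in bulk RNA fewer cells of a kind and less RNA per cell cannot be told apart.

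With *Fmr1* siRNA A against Scramble siRNA A, 27 of 37 genes fell and 1 rose at an adjusted p under 0.05 (quasi-likelihood F test of edgeR, adjusted by the Benjamini-Hochberg method over 19003 genes, the rule for every call below). Of all genes tested, 12.7% were lower and 9.35% higher in this contrast. The median log2 fold change of the listed genes was -0.66, against 0.011 over all genes. Of the sterol synthesis genes 12 of 18 fell, of the fatty acid genes 7 of 9, and both transport genes fell. No sterol synthesis gene rose (0 by DESeq2 and 0 at an unadjusted p under 0.05 in edgeR). The gene that rose was *Scap*. These calls are against Scramble siRNA A alone, and the sterol synthesis levels of *Fmr1* siRNA A lay within the range of Scramble siRNA B. Against all 6 Scramble libraries, 23 genes were lower and 2 higher, where 27.6% of all genes tested passed in either direction.

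The control siRNAs differed from each other too. With Scramble siRNA B against Scramble siRNA A, 19 of 37 genes fell and 1, *Abca1*, rose, where 11.6% of all genes tested were lower and 9.48% higher. The median log2 fold change was -0.46, against -0.001 over all genes. The genes that fell were mostly of sterol synthesis, 15 of 18 against 3 of 9 fatty acid genes. *Acat2* and *Aacs* are among these counts, and without them 17 of 35 genes fell and 1 rose. The Scramble siRNA B libraries took part in the choice of the list, so the counts are a description. This contrast shares the Scramble siRNA A libraries with the contrast above, and without Scramble siRNA A libraries 1 and 3 the counts were 10 lower and 1 higher.

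With *Zfp598* siRNA A against Scramble siRNA A, 5 of 37 genes fell and 3 rose, where 5.43% of all genes tested were lower and 5.60% higher. The median log2 fold change was -0.10. The genes that fell were *Elovl6*, *Dhcr7*, *Sqle*, *Msmo1* and *Insig2*, and those that rose were *Abca1*, *Mylip* and *Scap*. This count rested on single libraries: it was 18 without *Zfp598* siRNA A library 1, 5 without *Zfp598* siRNA A library 2 or library 3, 5 without Scramble siRNA A library 1 or library 3 and 4 without Scramble siRNA A library 2. Without *Zfp598* siRNA A libraries 2 and 3, which stood apart, 1 gene passed. Against all 6 Scramble libraries, 9 genes were higher and 1 lower. The share of all genes tested is not given for this setting, so nothing is read from these counts.

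The direct contrast of the *Fmr1* siRNAs holds no Scramble library. With *Fmr1* siRNA B against *Fmr1* siRNA A, 33 of 37 genes were higher and 0 lower, where 12.6% of all genes tested were higher and 10.4% lower (0 lower by DESeq2 and 0 at an unadjusted p under 0.05 in edgeR). The median log2 fold change was 0.83, against 0.004 over all genes. All 11 genes of the later sterol steps, all 9 fatty acid genes and 6 of 7 mevalonate genes were higher, and *Hmgcs1* was the mevalonate gene that did not pass. With *Zfp598* siRNA B against *Zfp598* siRNA A, 7 genes were higher and 9 lower, where 15.2% of all genes tested were higher and 18.1% lower, and the median log2 fold change was 0.00. Without *Zfp598* siRNA A libraries 2 and 3, 8 genes passed in this second contrast in place of 16. *Acat2* and *Aacs* are among the 33 genes of the first contrast, and without them 31 of 35 were higher and 0 lower. In the second contrast, 6 of 35 were higher and 9 lower without them. The *Fmr1* siRNA B and *Zfp598* siRNA B libraries took part in the choice of the list, so the counts of both contrasts are a description.

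Against Scramble siRNA B, the contrasts that took part in the choice, *Fmr1* siRNA B gave 26 genes higher and 2 lower (all genes tested, 11.0% and 10.4%), with a median log2 fold change of 0.49. *Zfp598* siRNA B gave 14 higher and 5 lower (all genes tested, 12.0% and 13.2%), with a median of 0.20. Nothing is read from these counts.

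A test of the difference itself asked whether the siRNAs of a target moved a gene differently, as the siRNA B effect minus the siRNA A effect, each against the Scramble siRNA of its letter. It shares the Scramble siRNA B and target siRNA B libraries with the choice of the list, so the counts are a description. For *Fmr1* it passed for 31 of 37 genes, all with the higher effect for siRNA B, where 11.6% of all genes tested passed in that direction and 8.86% in the other (in the other direction, 0 of the list passed by DESeq2 and 0 had an unadjusted p under 0.05 in edgeR). For *Zfp598* it passed for 15 genes with the higher effect for siRNA B and 4 with the lower, where 9.77% and 10.6% of all genes tested passed. *Acat2* and *Aacs* are in both counts, and without them 29 of 35 genes passed for *Fmr1*, and 13 with the higher and 4 with the lower effect for *Zfp598*.

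These differences depend on which Scramble siRNA serves as the control of which letter, and the labels do not say. Each is the direct contrast of the target's siRNAs minus that of the Scramble siRNAs. With the Scramble siRNA of the other letter as the control, an alternative chosen after seeing the data, 9 of the 35 genes passed with the higher and 1 with the lower effect for *Fmr1* siRNA B, where 23.5% of all genes tested passed in either direction. The median difference of the 35 genes went from 1.00 to 0.27. For *Zfp598*, 1 gene passed with the higher effect for siRNA B and 15 with the lower (34.8% of all genes tested passed in either direction), and the median went from 0.25 to -0.34. The direction for *Zfp598* thus turned with the choice of control. *Tm7sf2* had an *Fmr1* difference of -0.04 under this pairing (edgeR adjusted p = 0.922), *Mvd* of 0.38 (edgeR adjusted p = 0.0579) and *Cyp51* of 0.33 (edgeR adjusted p = 0.227), against the larger values given below for pairing by letter. *Hsd17b7* had a *Zfp598* difference of 0.04 (edgeR adjusted p = 0.913).

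With the siRNAs of a condition pooled, as the study did, few genes passed. *Fmr1* KD against Scramble KD gave 1 gene higher (*Scap*) and 2 lower (*Insig1* and *Insig2*) of 37, where 2.73% of 17901 genes tested were higher and 3.80% lower. *Zfp598* KD gave 1 gene higher (*Scap*) and 0 lower, where 0.916% of all genes tested were higher and 1.04% lower (0 of the list lower by DESeq2, 1 at an unadjusted p under 0.05 in edgeR). The median log2 fold changes of the list were -0.06 and 0.04. The single call for *Zfp598* KD was lost without any of Scramble siRNA A library 2, the Scramble siRNA B libraries, and *Zfp598* siRNA B libraries 2 and 3, although the log2 fold change of *Scap* stayed at 0.35 to 0.40 (edgeR adjusted p = 0.0518 to 0.0652). Without *Zfp598* siRNA A libraries 2 and 3, 4 genes passed for *Zfp598* KD. No sterol synthesis gene passed in either pooled contrast by edgeR or DESeq2, and at an unadjusted p under 0.05 in edgeR 1 was higher for *Fmr1* KD and 2 for *Zfp598* KD. *Mvd*, with a log2 fold change of 0.09 ± 0.247 (SE) in the pooled *Fmr1* contrast, had a log2 fold change of -1.02 with *Fmr1* siRNA A, and its mean was 96.3 CPM with *Fmr1* siRNA B against 46.0 CPM with Scramble siRNA B.

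**Figure D2:**
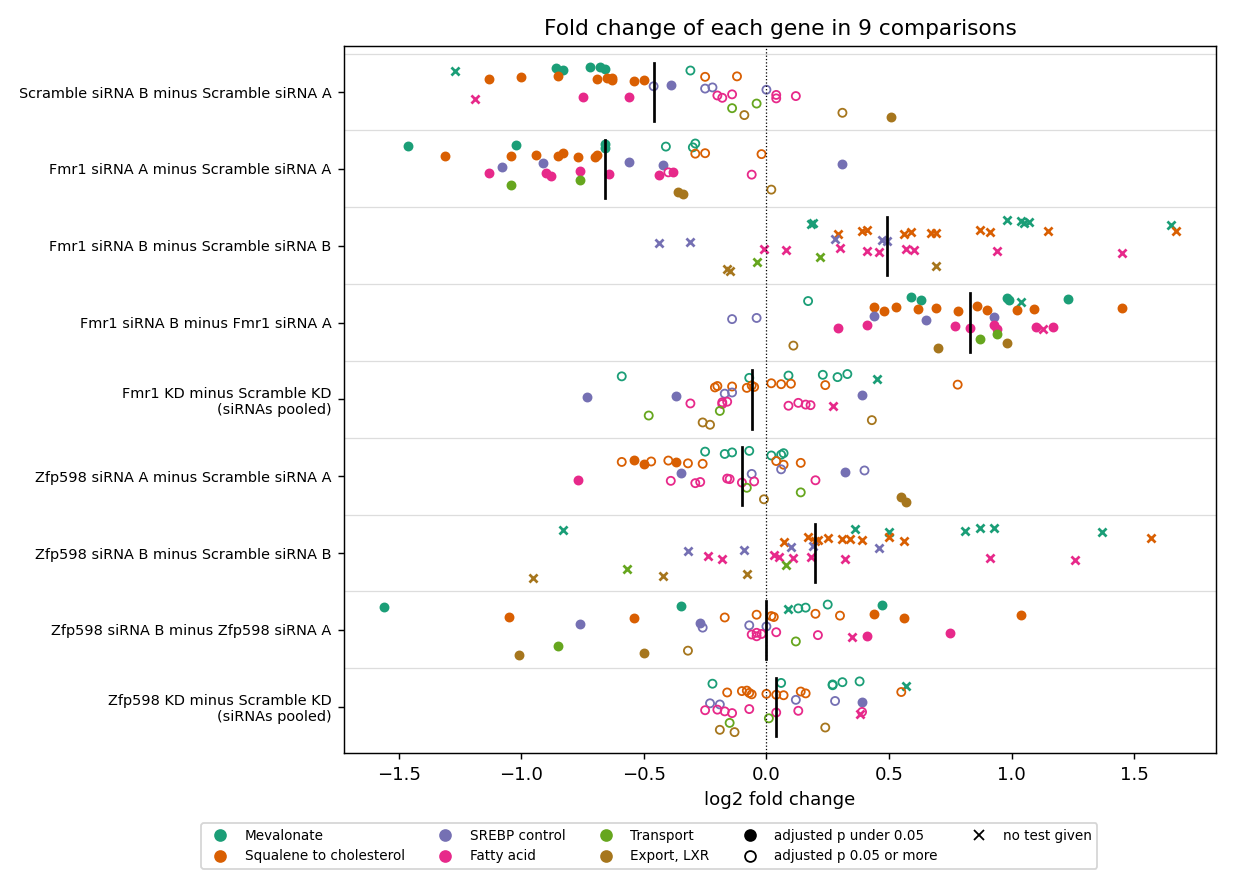
Log2 fold change of 37 genes (points, coloured by role) in 9 comparisons, with the median of the genes as a black bar. Filled points have an edgeR adjusted p under 0.05, open points do not, and crosses carry no test. The median lies at -0.66 for Fmr1 siRNA A against Scramble siRNA A and at 0.83 for Fmr1 siRNA B against Fmr1 siRNA A.

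Promoter sequence was compared because most of these genes moved in the same direction between the *Fmr1* siRNAs, though not between the *Zfp598* siRNAs. Whether promoter sequence had a part in their levels was not tested. RefSeq windows from 250 bases before to 50 after the annotated start were found for 29 of the 38 genes, with 37 windows in all because some genes have several. On either strand, the sterol element TCACNCCAC was in 1 window (2.7%) against 1.24% of all 32851 windows. The box CCAAT, known as the site of the factor NF-Y, was in 22 windows (59.5%) against 37.4%. The GC box GGGCGG, a site of Sp1-type factors, was in 27 windows (73.0%) against 35.7%, and the E-box CANNTG in 28 (75.7%) against 72.3%, though by gene the E-box was in 20 of 29 genes against 75% of all genes. These shares are descriptions, and a match in a window is not a binding site. The background holds every window, whether or not its gene is expressed in these cells, and several windows of a gene count separately. Below, bases before the start of the gene are shown for 3 genes that carry these motifs (*Hmgcs1*, with the sterol element, and *Hsd17b7* and *Insig1*) and for *Acat2* and *Aacs*, the genes behind the choice of the list, which have neither the sterol element nor CCAAT. Capitals mark the sterol element, CCAAT and GGGCGG on either strand. The sequences come from RefSeq (table of build GRCm38.p6) and were placed by exact match on GRCm39, at chr13:120151637-120151886 (plus strand, *Hmgcs1*), chr1:169796814-169797024 (minus strand, *Hsd17b7*), chr5:28276160-28276314 (plus strand, *Insig1*), chr17:13179642-13179862 (minus strand, *Acat2*) and chr5:125552687-125552859 (plus strand, *Aacs*).
Hmgcs1: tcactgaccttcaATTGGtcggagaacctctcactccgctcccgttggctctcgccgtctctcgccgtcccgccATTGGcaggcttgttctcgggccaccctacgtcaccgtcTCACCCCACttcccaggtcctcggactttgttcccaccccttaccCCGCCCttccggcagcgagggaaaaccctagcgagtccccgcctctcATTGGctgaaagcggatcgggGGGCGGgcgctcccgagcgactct
Hsd17b7: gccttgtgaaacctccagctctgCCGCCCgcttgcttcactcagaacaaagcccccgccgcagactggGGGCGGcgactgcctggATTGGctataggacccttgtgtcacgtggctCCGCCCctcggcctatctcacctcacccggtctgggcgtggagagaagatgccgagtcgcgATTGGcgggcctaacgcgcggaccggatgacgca
Insig1: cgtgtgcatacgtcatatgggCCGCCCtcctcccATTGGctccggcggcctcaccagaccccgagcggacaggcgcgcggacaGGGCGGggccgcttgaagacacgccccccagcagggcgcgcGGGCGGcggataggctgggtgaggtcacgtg
Acat2: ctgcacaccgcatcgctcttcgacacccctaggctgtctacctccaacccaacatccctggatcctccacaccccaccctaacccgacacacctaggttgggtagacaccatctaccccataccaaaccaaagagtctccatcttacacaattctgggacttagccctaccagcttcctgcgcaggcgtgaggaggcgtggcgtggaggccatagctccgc
Aacs: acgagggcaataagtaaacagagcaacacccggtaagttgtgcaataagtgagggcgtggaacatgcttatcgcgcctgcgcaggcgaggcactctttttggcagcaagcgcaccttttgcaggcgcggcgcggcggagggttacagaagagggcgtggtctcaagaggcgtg

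In the *Hmgcs1* stretch, the run TCACCCCAC is the sterol element, with 3 CCAAT boxes and 2 GC boxes around it. The *Hsd17b7* stretch has 2 CCAAT boxes and 3 GC boxes, and that of *Insig1* 1 and 3. The *Acat2* and *Aacs* stretches have no capitals, and the *Acat2* window holds 1 GC box, at -33 from the start, that runs past the end of the stretch shown. Over genes, 21 of 29 had CCAAT in a window (41.1% of all genes) and 23 of 29 had GGGCGG (38.2% of all genes).

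**Figure D3:**
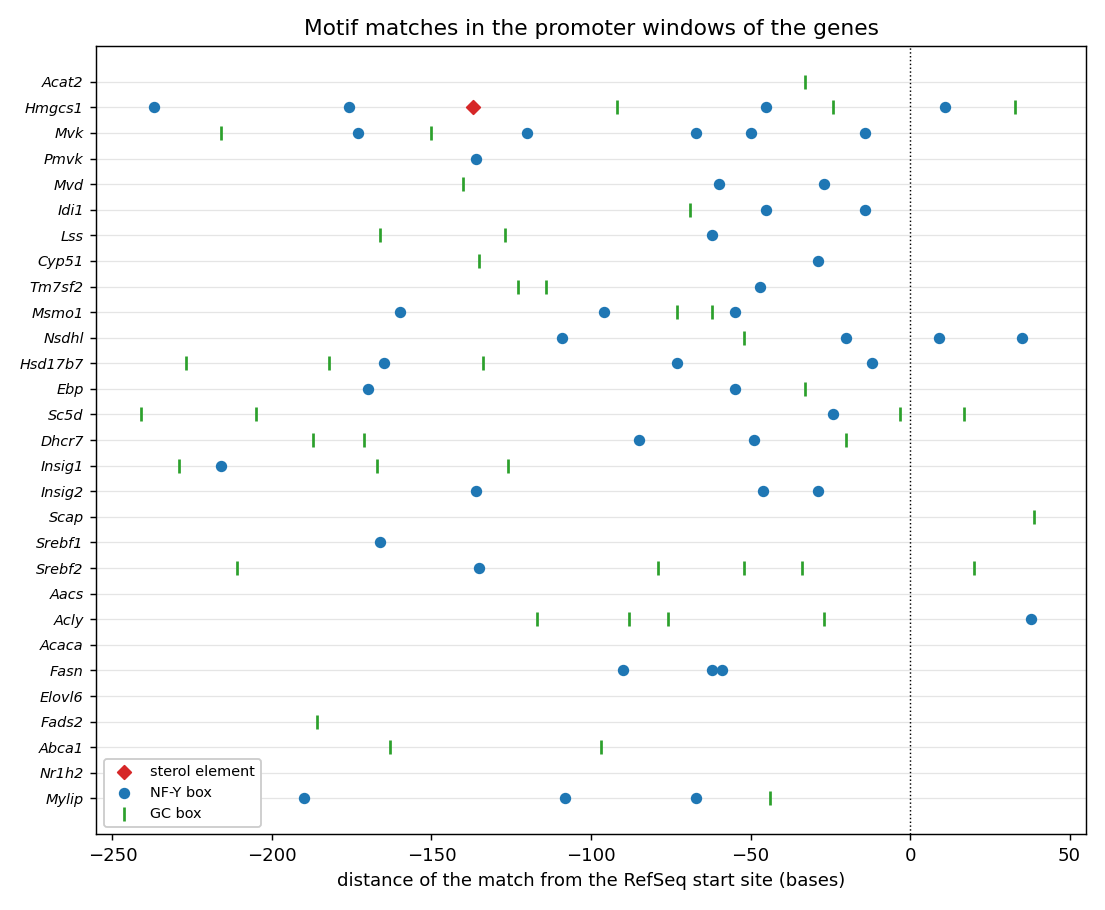
Position of motif matches on either strand in 1 RefSeq promoter window of each of 29 genes (rows), as distance in bases from the annotated start. For genes with several windows, the window drawn was the first found with a match, searching for the sterol element, then CCAAT, then the GC box. Red diamonds are the sterol element, blue dots CCAAT and green ticks the GC box. Matches lie mostly before the start. Acat2 has 1 GC box and Aacs has none of the 3 motifs.

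The mevalonate pathway turns acetyl-CoA into farnesyl diphosphate. *Acat2* (chr17:13161367-13179641, minus strand, protein coding) encodes the cytosolic thiolase that joins acetyl-CoA units into acetoacetyl-CoA. Its level was 98.2, 84.7 and 85.6 CPM with Scramble siRNA A and 41.8, 38.4 and 31.3 CPM with Scramble siRNA B. It was 58.7, 57.4 and 53.5 CPM with *Fmr1* siRNA A and 102, 124 and 123 CPM with *Fmr1* siRNA B. *Zfp598* siRNA A gave 94.8, 66.9 and 111 CPM and *Zfp598* siRNA B 89.3, 97.9 and 102 CPM. All Scramble siRNA B and *Fmr1* siRNA A libraries were below every other library, *Zfp598* siRNA B overlapped with Scramble siRNA A, and *Fmr1* siRNA B lay above it. *Acat2* fell by 0.66 ± 0.138 (log2, SE) with *Fmr1* siRNA A (edgeR adjusted p = 0.00138) and had a log2 fold change of 0.02 ± 0.138 with *Zfp598* siRNA A (edgeR adjusted p = 0.958). As a description, its log2 fold change was 1.65 with *Fmr1* siRNA B and 1.37 with *Zfp598* siRNA B against Scramble siRNA B, and -1.27 for Scramble siRNA B against Scramble siRNA A. Pooled over the siRNAs it was 0.45 for *Fmr1* KD and 0.57 for *Zfp598* KD.

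The exons of *Acat2* overlap those of *Tcp1*, on the opposite strand, over 322 bases or 5.48% of its exon length, and the strand setting of the counting is not given in the sources used here. *Tcp1*, a chaperonin subunit, had group means of 461 to 749.7 CPM in a different order, with 573 CPM for Scramble siRNA A, 542 CPM for Scramble siRNA B, 577 CPM for *Fmr1* siRNA A and 461 CPM for *Fmr1* siRNA B. *Acat3*, a near copy of *Acat2*, read 0.707 to 4.43 CPM.

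*Mvd*, the decarboxylase that makes isopentenyl diphosphate, had its low levels in the same groups as *Acat2*. Its levels were 85.9, 83.6 and 80.4 CPM with Scramble siRNA A and 44.5, 49.3 and 44.2 CPM with Scramble siRNA B. They were 41.4, 43.0 and 38.4 CPM with *Fmr1* siRNA A and 88.9, 101 and 98.7 CPM with *Fmr1* siRNA B. With *Zfp598* siRNA A they were 75.5, 65.7 and 85.6 CPM and with *Zfp598* siRNA B 52.1, 61.7 and 64.0 CPM. The 6 libraries of Scramble siRNA B and *Fmr1* siRNA A lay below all others. *Mvd* fell by 1.02 ± 0.101 (log2, SE) with *Fmr1* siRNA A (edgeR adjusted p = 3.28e-07) and by 0.86 ± 0.100 with Scramble siRNA B (edgeR adjusted p = 3.70e-06), both against Scramble siRNA A. *Fmr1* siRNA B was higher than *Fmr1* siRNA A by 1.23 (edgeR adjusted p = 3.68e-08). As a description, the *Fmr1* effects of the siRNAs differed by 2.09 ± 0.142. A noncoding gene on the opposite strand overlaps 20.48% of the *Mvd* exons.

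*Pmvk*, the kinase for phosphomevalonate, differed from *Mvd* in the *Zfp598* libraries. It read 72.5, 54.8 and 68.9 CPM with Scramble siRNA A and 36.2, 46.4 and 41.2 CPM with Scramble siRNA B. *Fmr1* siRNA A gave 23.4, 19.4 and 28.2 CPM and *Fmr1* siRNA B 41.9, 46.3 and 53.2 CPM. *Zfp598* siRNA A gave 53.8, 63.4 and 90.2 CPM and *Zfp598* siRNA B 22.7, 21.2 and 25.8 CPM. *Fmr1* siRNA A and *Zfp598* siRNA B overlapped with each other and lay below the other 12 libraries. *Pmvk* fell by 1.46 ± 0.169 (log2, SE) with *Fmr1* siRNA A (edgeR adjusted p = 2.23e-06) and by 0.66 with Scramble siRNA B (edgeR adjusted p = 0.00583), both against Scramble siRNA A. It was lower with *Zfp598* siRNA B than with *Zfp598* siRNA A, by -1.56 ± 0.173 (edgeR adjusted p = 1.63e-06).

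*Mvk*, mevalonate kinase, was a low gene, at 14.4 ± 3.26 CPM (SD, n = 3) with Scramble siRNA A and 8.04 ± 0.936 CPM with Scramble siRNA B. It fell by 0.83 on the log2 scale between them (edgeR adjusted p = 0.00144), and without Scramble siRNA A libraries 1 and 3 the value was -0.41 (edgeR adjusted p = 0.333). *Idi1*, the isomerase of isopentenyl diphosphate, read 36.1 to 42.4 CPM with Scramble siRNA A, 18.1 to 27.6 CPM with Scramble siRNA B and 22.5 to 27.2 CPM with *Fmr1* siRNA A, so that both were below Scramble siRNA A. It fell by 0.72 (edgeR adjusted p = 0.00315) and 0.66 (edgeR adjusted p = 0.00536) against Scramble siRNA A. *Fdps*, farnesyl diphosphate synthase, read only 4.22 to 10.4 CPM and fell by 0.68 with Scramble siRNA B against Scramble siRNA A (edgeR adjusted p = 0.0144). Against Scramble siRNA B, the log2 fold changes with *Fmr1* siRNA B were 1.05 for *Mvk* and 1.04 for *Idi1*, and those with *Zfp598* siRNA B were 0.93 for *Idi1* and 0.87 for *Fdps*, as a description.

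*Hmgcs1*, the synthase of HMG-CoA, moved least in this group. It read 186, 175 and 152 CPM with Scramble siRNA A and 148, 152 and 113 CPM with Scramble siRNA B. It was at 127, 148 and 141 CPM with *Fmr1* siRNA A and 129, 168 and 172 CPM with *Fmr1* siRNA B. *Zfp598* siRNA A gave 232, 155 and 144 CPM and *Zfp598* siRNA B 197, 183 and 203 CPM. *Fmr1* siRNA A lay below Scramble siRNA A without overlap, Scramble siRNA B met its lower end and *Fmr1* siRNA B overlapped with it. Its log2 fold change was -0.30 with *Fmr1* siRNA A (edgeR adjusted p = 0.166) and -0.31 with Scramble siRNA B (edgeR adjusted p = 0.155) against Scramble siRNA A, and neither passed.

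The later steps close and trim the sterol ring. *Tm7sf2*, a sterol reductase, read 42.1, 27.5 and 39.8 CPM with Scramble siRNA A and 16.4, 17.9 and 15.6 CPM with Scramble siRNA B. With *Fmr1* siRNA A it read 15.5, 13.5 and 15.2 CPM and with *Fmr1* siRNA B 26.8, 32.8 and 34.2 CPM. With *Zfp598* siRNA A it read 40.1, 37.0 and 43.2 CPM and with *Zfp598* siRNA B 16.2, 17.8 and 23.8 CPM. Scramble siRNA B, *Fmr1* siRNA A and *Zfp598* siRNA B made up the low libraries, below the other 9. *Tm7sf2* fell by 1.31 ± 0.156 (log2, SE) with *Fmr1* siRNA A (edgeR adjusted p = 3.33e-06) and by 1.13 ± 0.154 with Scramble siRNA B (edgeR adjusted p = 2.15e-05), both against Scramble siRNA A. As a description, its *Fmr1* effect differed between the siRNAs by 2.22 ± 0.219 and its *Zfp598* effect by 0.08 ± 0.218. It was low with both Scramble siRNA B and *Zfp598* siRNA B. *Zfp598* siRNA B was below *Zfp598* siRNA A by -1.05 (edgeR adjusted p = 3.97e-05). Exons of *Vps51*, on the same strand, cover 532 bases or 10.82% of the *Tm7sf2* exons, so strand alone cannot assign reads there.

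*Hsd17b7*, a keto reductase of the pathway, had the widest span of group means, with a ratio of 3.18 between the highest and the lowest. It read 45.2, 48.5 and 36.9 CPM with Scramble siRNA A and 23.2, 23.7 and 18.5 CPM with Scramble siRNA B. *Fmr1* siRNA A gave 45.4, 47.8 and 35.9 CPM and *Fmr1* siRNA B 63.0, 76.4 and 68.7 CPM. *Zfp598* siRNA A gave 44.5, 23.5 and 24.1 CPM and *Zfp598* siRNA B 66.4, 69.9 and 57.4 CPM. Here *Fmr1* siRNA A overlapped with Scramble siRNA A, the siRNA B groups of *Fmr1* and *Zfp598* were above all other libraries, and *Zfp598* siRNA A library 1 lay within the Scramble siRNA A range while libraries 2 and 3 lay near Scramble siRNA B. The log2 fold change with *Fmr1* siRNA A was -0.02 (edgeR adjusted p = 0.967), and *Hsd17b7* fell by 1.00 with Scramble siRNA B against Scramble siRNA A (edgeR adjusted p = 5.33e-04). The direct contrast of siRNA B and siRNA A gave 0.69 for *Fmr1* (edgeR adjusted p = 0.00709) and 1.04 for *Zfp598* (edgeR adjusted p = 2.46e-04). As a description, the *Zfp598* effects of the siRNAs differed by 2.04 ± 0.263. Pooled, it was 0.78 for *Fmr1* KD (edgeR adjusted p = 0.0976) and 0.55 for *Zfp598* KD (edgeR adjusted p = 0.302), neither past the threshold. Against Scramble siRNA B alone, as a description, the log2 fold changes of *Hsd17b7* were 1.67 and 1.57.

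*Nsdhl*, a sterol dehydrogenase, read 13.0, 11.8 and 10.4 CPM with Scramble siRNA A and 7.24, 8.71 and 6.71 CPM with Scramble siRNA B. It read 6.17, 6.72 and 5.41 CPM with *Fmr1* siRNA A and 16.5, 18.1 and 15.5 CPM with *Fmr1* siRNA B. The *Fmr1* siRNA B libraries were above all others, and *Zfp598* siRNA A spread over 11.7, 4.48 and 6.19 CPM. *Nsdhl* was higher with *Fmr1* siRNA B than with *Fmr1* siRNA A by 1.45 ± 0.215 (log2, SE, edgeR adjusted p = 3.86e-05), and it fell by 0.94 with *Fmr1* siRNA A against Scramble siRNA A (edgeR adjusted p = 0.00353).

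*Cyp51*, the lanosterol demethylase, read 297, 285 and 264 CPM with Scramble siRNA A and 184, 202 and 140.1 CPM with Scramble siRNA B. It was at 128, 147 and 137 CPM with *Fmr1* siRNA A and 236, 299 and 301 CPM with *Fmr1* siRNA B. Both low groups were below the range of Scramble siRNA A, and *Fmr1* siRNA B overlapped with it. *Cyp51* fell by 1.04 with *Fmr1* siRNA A (edgeR adjusted p = 1.05e-05) and by 0.69 with Scramble siRNA B (edgeR adjusted p = 9.67e-04). As a description, its *Fmr1* effect differed between the siRNAs by 1.71 ± 0.193. Exons of *Akap9* on the opposite strand cover 21.1% of the *Cyp51* exons.

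*Sqle* and *Dhcr7* moved with *Zfp598* siRNA A as well. *Sqle*, squalene epoxidase, read 257 to 272 CPM with Scramble siRNA A, 163 to 205 CPM with Scramble siRNA B, 154 to 180.2 CPM with *Fmr1* siRNA A and 163 to 218 CPM with *Zfp598* siRNA A, so that all 3 groups lay below Scramble siRNA A. It fell by 0.50 with *Zfp598* siRNA A (edgeR adjusted p = 0.00428), and *Zfp598* siRNA B, at 273 to 281 CPM, was above *Zfp598* siRNA A by 0.56 (edgeR adjusted p = 4.47e-04). *Dhcr7*, the reductase of dehydrocholesterol, read 150.3 to 168 CPM with Scramble siRNA A, 75.2 to 99.5 CPM with Scramble siRNA B, 82.8 to 93.7 CPM with *Fmr1* siRNA A and 136, 80.6 and 106 CPM with *Zfp598* siRNA A. It fell by 0.85 with Scramble siRNA B (edgeR adjusted p = 1.19e-04) and by 0.54 with *Zfp598* siRNA A (edgeR adjusted p = 0.0129). Both *Zfp598* siRNA A calls were lost without its libraries 2 and 3, where the values were -0.29 for *Sqle* (edgeR adjusted p = 0.231) and -0.21 for *Dhcr7* (edgeR adjusted p = 0.457). They were also lost against all 6 Scramble libraries, at -0.25 (edgeR adjusted p = 0.0691) and -0.12 (edgeR adjusted p = 0.523), and when only the compared groups were fitted, at -0.50 (edgeR adjusted p = 0.118) and -0.54 (edgeR adjusted p = 0.188). The *Dhcr7* call was lost too without *Zfp598* siRNA A library 2 (-0.36, edgeR adjusted p = 0.0945) or Scramble siRNA A library 2 (-0.48, edgeR adjusted p = 0.0602).

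Of the other genes of the later steps, *Fdft1* (squalene synthase), *Lss* (lanosterol synthase) and *Msmo1* (a methylsterol oxidase) fell with both *Fmr1* siRNA A and Scramble siRNA B against Scramble siRNA A. *Lss* read 363 to 405 CPM with Scramble siRNA A, 195 to 284 CPM with Scramble siRNA B, 204 to 217 CPM with *Fmr1* siRNA A and 343 to 443 CPM with *Fmr1* siRNA B. *Ebp*, a sterol isomerase, and *Sc5d*, a sterol desaturase, passed in neither of these contrasts, with log2 fold changes of -0.29 and -0.25 for *Fmr1* siRNA A and -0.25 and -0.12 for Scramble siRNA B, although both were higher with *Fmr1* siRNA B than with *Fmr1* siRNA A, by 0.44 and 0.53. Reads of *Fdft1* are also uncertain, since exons of *Ctsb* on the opposite strand cover 24.78% of its exons.

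**Figure D4:**
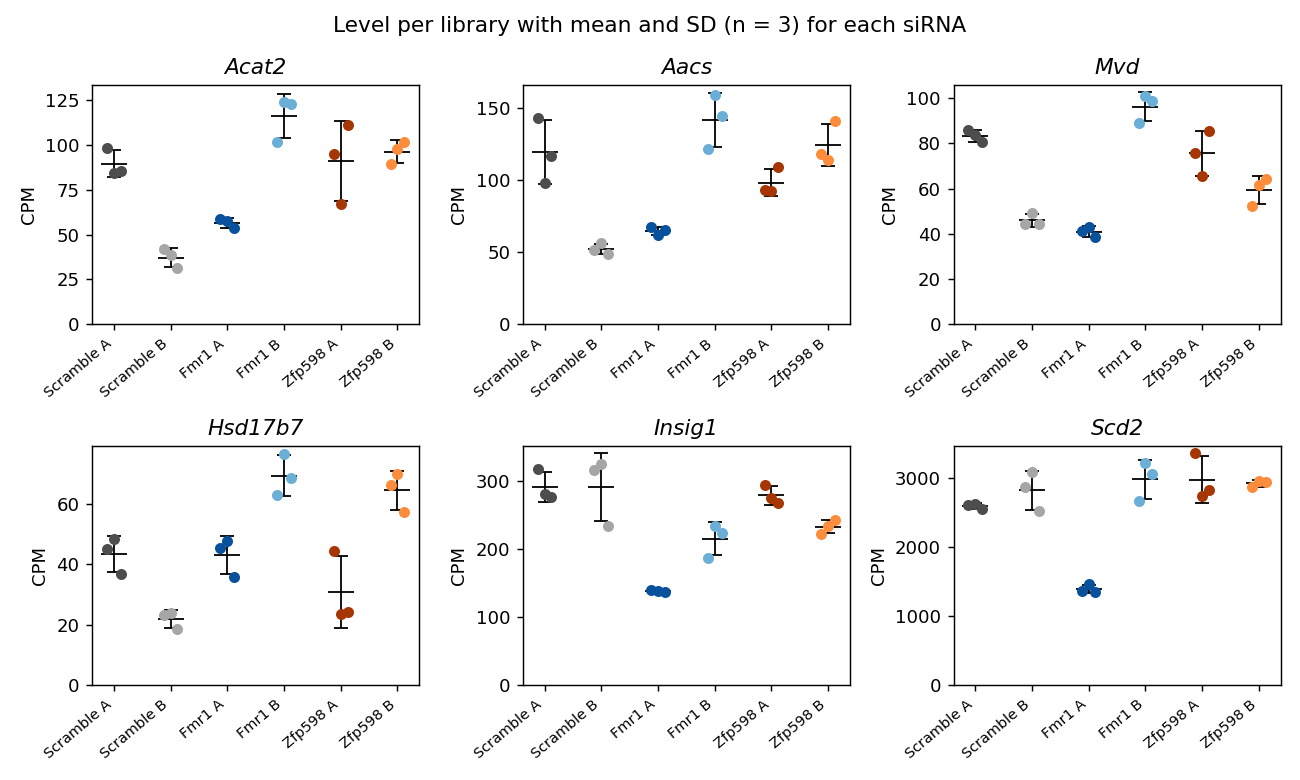
Level (CPM, axis from 0) of Acat2, Aacs, Mvd, Hsd17b7, Insig1 and Scd2 in each of the 18 libraries (points), with mean and SD of the 3 libraries of each siRNA. Acat2, Aacs and Mvd are low with Scramble siRNA B and Fmr1 siRNA A, whereas Insig1 and Scd2 are lowest with Fmr1 siRNA A, at 137 and 1386 CPM, with Scramble siRNA B at 291 and 2816 CPM.

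The genes of SREBP control did not follow the enzymes as a group. *Insig1*, which holds SREBPs in the endoplasmic reticulum and is itself an SREBP target, read 317, 280.2 and 276 CPM with Scramble siRNA A and 316, 324 and 233 CPM with Scramble siRNA B. It read 139, 138 and 136 CPM with *Fmr1* siRNA A and 187, 234 and 224 CPM with *Fmr1* siRNA B. With *Zfp598* siRNA A it read 294, 275 and 267 CPM and with *Zfp598* siRNA B 222, 234 and 242 CPM. *Fmr1* siRNA A was below all other libraries, and the Scramble siRNAs overlapped. *Insig1* fell by 1.08 ± 0.108 (log2, SE) with *Fmr1* siRNA A (edgeR adjusted p = 3.65e-07), and its log2 fold change with Scramble siRNA B was -0.00 (edgeR adjusted p = 0.995). In the pooled contrast of *Fmr1* KD it fell by 0.73 ± 0.137 (edgeR adjusted p = 0.00301), the largest change of the 3 genes that passed there. With *Fmr1* siRNA B against Scramble siRNA B the log2 fold change was -0.44, as a description, so that both *Fmr1* siRNAs had values below 0.

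*Insig2*, which has the same role, read 54.3 to 56.5 CPM with Scramble siRNA A, 41.5 to 50.6 CPM with Scramble siRNA B, 39.6 to 43.4 CPM with *Fmr1* siRNA A and 36.2 to 38.2 CPM with *Fmr1* siRNA B. It fell by 0.37 in the pooled *Fmr1* contrast (edgeR adjusted p = 0.0215), a call that was lost without the filter on low counts (edgeR adjusted p = 0.0546) and without Scramble siRNA A libraries 1 and 3 (edgeR adjusted p = 0.0804).

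*Scap*, the carrier of the SREBPs, read 103, 92.4 and 101 CPM with Scramble siRNA A and 81.2, 85.0 and 89.3 CPM with Scramble siRNA B. With *Fmr1* siRNA A it read 121, 122 and 125 CPM and with *Fmr1* siRNA B 115, 125 and 119 CPM. With *Zfp598* siRNA A it read 101, 125 and 145 CPM and with *Zfp598* siRNA B 114, 123 and 114 CPM. All 6 *Fmr1* KD libraries were above all 6 Scramble KD libraries, and of the *Zfp598* KD libraries only siRNA A library 1 fell within the Scramble range. *Scap* rose by 0.39 in the pooled contrasts of both *Fmr1* KD (edgeR adjusted p = 0.00920) and *Zfp598* KD (edgeR adjusted p = 0.0249), which share their controls. It was the listed gene that passed in both.

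*Srebf1* and *Srebf2* encode the SREBPs. *Srebf1* read 497, 354 and 472 CPM with Scramble siRNA A and 301, 330.4 and 329 CPM with Scramble siRNA B. It read 228, 214 and 260.1 CPM with *Fmr1* siRNA A and 420.5, 437 and 477 CPM with *Fmr1* siRNA B. *Zfp598* siRNA A gave 372, 619.6 and 756 CPM and *Zfp598* siRNA B 321, 353 and 354 CPM. *Fmr1* siRNA A was below all other libraries and *Zfp598* siRNA A spread most. *Srebf1* fell by 0.91 with *Fmr1* siRNA A (edgeR adjusted p = 4.35e-04), and *Srebf2* fell by 0.56 (edgeR adjusted p = 1.57e-04). With Scramble siRNA B, the log2 fold change of *Srebf1* was -0.46 (edgeR adjusted p = 0.0550), and *Srebf2* fell by 0.39 (edgeR adjusted p = 0.00428).

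Fatty acid synthesis starts from the same acetyl-CoA. *Aacs* (chr5:125552860-125595829, plus strand, protein coding) encodes the cytosolic synthetase that turns acetoacetate into acetoacetyl-CoA for lipid synthesis. It read 143, 98.4 and 117 CPM with Scramble siRNA A and 51.3, 56.3 and 48.9 CPM with Scramble siRNA B. It read 67.6, 62.2 and 65.2 CPM with *Fmr1* siRNA A and 122, 159 and 145 CPM with *Fmr1* siRNA B. *Zfp598* siRNA A gave 93.1, 92.5 and 109 CPM and *Zfp598* siRNA B 118, 114 and 141 CPM. As for *Acat2*, all Scramble siRNA B and *Fmr1* siRNA A libraries were below every other library. *Aacs* fell by 0.88 ± 0.124 (log2, SE) with *Fmr1* siRNA A (edgeR adjusted p = 2.57e-05), and its value with *Zfp598* siRNA A was -0.29 (edgeR adjusted p = 0.150). As a description, its log2 fold change was 1.45 with *Fmr1* siRNA B and 1.26 with *Zfp598* siRNA B against Scramble siRNA B, -1.19 for Scramble siRNA B against Scramble siRNA A, and 0.27 and 0.38 for *Fmr1* KD and *Zfp598* KD pooled.

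*Scd2*, the main stearoyl-CoA desaturase of brain, separated *Fmr1* siRNA A from all other groups. It read 1363, 1457 and 1338 CPM with *Fmr1* siRNA A and 2666, 3212 and 3046 CPM with *Fmr1* siRNA B. Scramble siRNA A gave 2608, 2619 and 2543 CPM and Scramble siRNA B 2858, 3079.8 and 2512 CPM. *Zfp598* siRNA A gave 3361, 2737 and 2817 CPM and *Zfp598* siRNA B 2864, 2958 and 2944 CPM. *Scd2* fell by 0.90 ± 0.0950 (log2, SE) with *Fmr1* siRNA A (edgeR adjusted p = 7.34e-07), and its value with Scramble siRNA B was 0.12 (edgeR adjusted p = 0.399). *Fmr1* siRNA B was above *Fmr1* siRNA A by 1.10 (edgeR adjusted p = 6.54e-08). *Scd1*, a desaturase of the same family, was much lower, at 16.7, 21.7 and 17.2 CPM with Scramble siRNA A, 8.13, 9.43 and 7.85 CPM with *Fmr1* siRNA A and 20.8, 18.8 and 17.5 CPM with *Fmr1* siRNA B. It fell by 1.13 ± 0.174 with *Fmr1* siRNA A (edgeR adjusted p = 6.48e-05), and *Fmr1* siRNA B was above *Fmr1* siRNA A by 1.17 (edgeR adjusted p = 3.84e-05). The related genes *Scd3* and *Scd4* read 4.90 to 11.9 CPM and 0.707 to 4.77 CPM, and reads shared with them cannot be told apart for *Scd1*.

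*Fasn*, fatty acid synthase, read 977, 786 and 896 CPM with Scramble siRNA A and 512, 558 and 511 CPM with Scramble siRNA B. It read 562, 546 and 599.6 CPM with *Fmr1* siRNA A and 899, 1083 and 1050.1 CPM with *Fmr1* siRNA B. Like the sterol enzymes, it was low with both Scramble siRNA B and *Fmr1* siRNA A, whose ranges overlapped. *Fasn* fell by 0.64 with *Fmr1* siRNA A (edgeR adjusted p = 0.00114) and by 0.75 with Scramble siRNA B (edgeR adjusted p = 2.85e-04). Its log2 fold change with *Zfp598* siRNA B against Scramble siRNA B was 0.91, as a description.

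*Elovl6*, a fatty acid elongase, was lowest with *Zfp598* siRNA A. It read 73.5, 103 and 86.5 CPM with Scramble siRNA A and 67.4, 40.6 and 44.2 CPM with *Zfp598* siRNA A, so that the groups did not overlap. *Zfp598* siRNA B gave 88.7, 87.8 and 82.6 CPM and *Fmr1* siRNA B 119, 112 and 108 CPM. *Elovl6* fell by 0.77 ± 0.149 with *Zfp598* siRNA A (edgeR adjusted p = 0.00201), a call that was lost without *Zfp598* siRNA A libraries 2 and 3 (-0.38, edgeR adjusted p = 0.168) and with only the compared groups fitted (-0.78, edgeR adjusted p = 0.123). Of the others, *Acly*, which makes cytosolic acetyl-CoA from citrate, read 748 to 821 CPM with *Fmr1* siRNA A, 1373 to 1613 CPM with *Fmr1* siRNA B and 862 to 1193 CPM in the other 12 libraries. *Fads2*, a fatty acid desaturase, read 73.8 to 85.2 CPM, 146 to 163 CPM and 111 to 141 CPM in the same order, so that both genes set each *Fmr1* siRNA apart in an opposite direction. *Acaca*, acetyl-CoA carboxylase, had a log2 fold change of -0.06 with *Fmr1* siRNA A and was higher with *Fmr1* siRNA B than with *Fmr1* siRNA A by 0.29. *Fads1*, a fatty acid desaturase, had the smallest span of group means of the list, with a ratio of 1.34.

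Of the transport genes, *Stard4*, a cytosolic sterol carrier, read 279, 203 and 210.1 CPM with Scramble siRNA A and 231, 239 and 159 CPM with Scramble siRNA B. It read 113, 110.4 and 112 CPM with *Fmr1* siRNA A and 176, 219 and 217 CPM with *Fmr1* siRNA B. *Zfp598* siRNA A gave 265, 246 and 252 CPM and *Zfp598* siRNA B 132, 142 and 149 CPM. *Fmr1* siRNA A was lowest and *Zfp598* siRNA B next, and neither overlapped with another group. *Stard4* fell by 1.04 ± 0.133 (log2, SE) with *Fmr1* siRNA A (edgeR adjusted p = 7.15e-06), and *Zfp598* siRNA B was below *Zfp598* siRNA A by -0.85 (edgeR adjusted p = 6.94e-05). *Npc1*, through which cholesterol leaves the lysosome, read 41.2 to 50.9 CPM with *Fmr1* siRNA A and 68.3 to 90.5 CPM in all other libraries, and fell by 0.76 (edgeR adjusted p = 3.15e-06).

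Export genes had an order of their own. *Abca1*, the exporter of cholesterol to apolipoproteins and a target of liver X receptors, read 53.4, 54.1 and 54.0 CPM with Scramble siRNA A and 76.3, 73.3 and 79.8 CPM with Scramble siRNA B. It read 44.9, 39.4 and 42.9 CPM with *Fmr1* siRNA A and 66.5, 65.3 and 74.4 CPM with *Fmr1* siRNA B. *Zfp598* siRNA A gave 68.1, 82.8 and 89.5 CPM and *Zfp598* siRNA B 37.3, 39.9 and 41.5 CPM. It was high with Scramble siRNA B, where the sterol enzymes were low, and low with *Zfp598* siRNA B. Between the *Fmr1* siRNAs it went the same way as the sterol enzymes, lower with siRNA A than with siRNA B. *Abca1* rose by 0.51 ± 0.0948 (log2, SE) with Scramble siRNA B against Scramble siRNA A (edgeR adjusted p = 5.79e-04) and by 0.57 with *Zfp598* siRNA A (edgeR adjusted p = 6.66e-04), the latter not without its libraries 2 and 3 (0.34, edgeR adjusted p = 0.0963) nor with only the compared groups fitted (0.57, edgeR adjusted p = 0.0797). *Zfp598* siRNA B was below *Zfp598* siRNA A by -1.01 (edgeR adjusted p = 3.47e-07). As a description, the *Zfp598* effects of the siRNAs differed by -1.52 ± 0.136.

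*Mylip*, a ubiquitin ligase that liver X receptors induce, read 11.2, 13.7 and 13.0 CPM with Scramble siRNA A and 18.7, 16.7 and 20.5 CPM with *Zfp598* siRNA A, without overlap. *Fmr1* siRNA B, at 24.2, 22.9 and 28.9 CPM, was above all other libraries. *Mylip* rose by 0.55 with *Zfp598* siRNA A (edgeR adjusted p = 0.0106). The call was lost at a like size without *Zfp598* siRNA A libraries 2 and 3 (0.56, edgeR adjusted p = 0.0701) and with only the compared groups fitted (0.56, edgeR adjusted p = 0.143), and without Scramble siRNA A libraries 1 and 3 it was 0.43 (edgeR adjusted p = 0.152). *Mylip* was higher with *Fmr1* siRNA B than with *Fmr1* siRNA A by 0.98 (edgeR adjusted p = 8.19e-06). *Nr1h2*, a liver X receptor, fell by 0.36 with *Fmr1* siRNA A (edgeR adjusted p = 0.0194). *Abcg1* had 0 counts in all Scramble siRNA A and *Zfp598* siRNA A libraries and at most 0.537 CPM elsewhere, in *Fmr1* siRNA B library 1.

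The rest of the pathway was followed in 46 further genes of SREBP processing, isoprenoid and fatty acid synthesis, storage and transport, and liver X receptor partners, of which 45 were tested. With *Fmr1* siRNA A against Scramble siRNA A, 14 of 45 fell and 1 rose (all genes tested, 12.7% and 9.35%). Among those that fell were *Lpin1*, a phosphatidate phosphatase, by 1.17 (edgeR adjusted p = 5.53e-08) and *Acss2*, which makes acetyl-CoA from acetate, by 1.05 (edgeR adjusted p = 3.23e-07). With Scramble siRNA B, 10 fell and 3 rose (all genes tested, 11.6% and 9.48%), led by *Slc25a1*, the mitochondrial citrate carrier, which fell by 0.94 (edgeR adjusted p = 3.68e-05), *Lrp8*, a lipoprotein receptor, by 0.79 (edgeR adjusted p = 6.94e-06) and *Acss2* by 0.74 (edgeR adjusted p = 2.65e-05).

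*Acss2* read 162, 159 and 149 CPM with Scramble siRNA A, 98.3, 100.1 and 83.3 CPM with Scramble siRNA B, 69.3, 82.4 and 75.1 CPM with *Fmr1* siRNA A and 144, 173 and 168 CPM with *Fmr1* siRNA B. Its low groups were those of *Acat2*, *Aacs* and *Mvd*. With *Fmr1* siRNA B against *Fmr1* siRNA A, 10 of the 45 were higher and 6 lower (all genes tested, 12.6% and 10.4%), with *Acss2* at 1.09 and *Lpin1* at 0.98. With *Zfp598* siRNA A, 6 rose and 6 fell (all genes tested, 5.60% and 5.43%), with *Stard3*, a lysosomal sterol carrier, at 0.67 and *Rxra*, a partner of liver X receptors, at -0.67. Between the *Zfp598* siRNAs, 9 were higher and 12 lower with siRNA B (all genes tested, 15.2% and 18.1%), among them *Npc2*, which works with *Npc1* (-1.13), and *Rxrb* (-0.94). In the pooled contrasts 1 of these genes passed for each condition, both higher, where 2.73% of all genes tested were higher for *Fmr1* KD and 0.916% for *Zfp598* KD. *Nr1h3*, a liver X receptor at low counts, rose by 1.04 for *Fmr1* KD (edgeR adjusted p = 0.0468), and *Stard3* rose by 0.51 for *Zfp598* KD (edgeR adjusted p = 0.0228).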

How the data were processed

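Reads were trimmed by the authors with Trim Galore, mapped with STAR (GRCm39) and assigned to exons of genes with featureCounts. The deposited values are raw counts, 1 column per library, neither normalized nor pooled. Tool versions, annotation release, strand setting and treatment of reads with several alignments are not given in the sources used here. From the deposited counts, fold changes were tested with edgeR 4.0.16 (limma 3.58.1, R 4.3.3): filterByExpr (minimum count 10, minimum total 15), TMM, glmQLFit and glmQLFTest, with Benjamini-Hochberg adjustment over all genes kept. A model of 6 siRNA groups kept 19003 genes and a model of 3 conditions 17901, both on all 18 libraries, and adjusted p under 0.05 was the threshold. CPM values use TMM library sizes. Log2 deviations use log2(CPM + 0.5). Positions follow GENCODE M39 on GRCm39, which held 54749 of the 55414 genes. *Fmr1* and *Zfp598* effects were taken against the Scramble siRNA of the same letter. DESeq2 1.42.0, other filters and controls, and leaving out each library were run as alternatives. Scripts were tested on simulated data.

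The genes and all lists were chosen with earlier results of these data known. Named were the targets, *Acat2*, *Aacs* and genes that could share their reads, the 5 listed genes with the largest change among those passing in a comparison, at least 1 gene of each role, and the 3 largest among the other pathway genes passing, of which some are not reported here. Other listed genes were added for their role. Libraries of an siRNA are replicate transfections of a single line. In the model of siRNA groups, p-values therefore measure the spread between these transfections. In the pooled contrasts, which do not separate the siRNAs of a condition, p-values measure that spread together with the difference between these siRNAs. Depth was 7674724 to 15414590 counts, and without molecular identifiers counts are not independent molecules. Sequences of the siRNAs were not used here.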

Additional observations from a re-analysis of the deposited data

Results flagged for a closer look

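By the test of the difference itself, the *Fmr1* effect differed between the siRNAs for 29 listed genes other than *Acat2* and *Aacs*. All had the higher value for siRNA B, where 11.6% of all genes tested passed in that direction and 8.86% in the other. The test shares siRNA B libraries with the choice of the list, so its counts and values are a description. The log2 differences (siRNA B effect minus siRNA A effect) were largest for *Tm7sf2*, at 2.22, *Mvd*, at 2.09, *Nsdhl*, at 2.09, *Scd1*, at 1.73, and *Cyp51*, at 1.71. For *Zfp598* knockdown the effects differed for 17 listed genes other than *Acat2* and *Aacs*, 13 with the higher and 4 with the lower value for siRNA B. Of all genes tested, 9.77% and 10.6% passed in these directions. The largest values were those of *Hsd17b7*, at 2.04, *Abca1*, at -1.52, *Idi1*, at 1.19, *Sqle*, at 1.06, and *Dhcr7*, at 1.05. Each effect was taken against the Scramble siRNA of its letter. The Scramble siRNAs differed for 20 of the 37 genes, *Acat2* and *Aacs* among them (all genes tested, 11.6% lower and 9.48% higher with Scramble siRNA B). For *Tm7sf2* the *Fmr1* siRNAs differed directly by 1.09 and the Scramble siRNAs by -1.13, while for *Hsd17b7* the *Zfp598* siRNAs differed by 1.04 and the level fell by 1.00 with Scramble siRNA B against Scramble siRNA A. With the Scramble siRNA of the other letter as the control, chosen after seeing the data, 9 of 35 genes passed with the higher and 1 with the lower value for *Fmr1*. For *Zfp598* these counts were 1 and 15. Of all genes tested, 23.5% passed in either direction for *Fmr1* and 34.8% for *Zfp598*. The part of the proliferation genes in these differences was not tested.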

How the results depend on the processing

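With DESeq2, without a filter on low counts and with the other planned settings, counts of genes passing mostly stayed within 1.5 times of those reported, and of the values followed gene by gene under the alternatives 810 kept direction and threshold, 36 lost the threshold and 3 reversed. When a change of over 2-fold was also required, 7 genes passed for *Fmr1* siRNA A, 0 for *Zfp598* siRNA A, 3 for Scramble siRNA B against A, 7 for *Fmr1* siRNA B, 3 for *Zfp598* siRNA B, 8 for *Fmr1* siRNA B against A, 4 for *Zfp598* siRNA B against A, 20 and 7 for the differences between siRNAs of *Fmr1* and *Zfp598*, and 0 and 0 for the pooled contrasts. The pooled count for *Zfp598* KD was 0 without the filter, and that of *Zfp598* siRNA A was 0 when only the compared groups were fitted. Without *Zfp598* siRNA A libraries 2 and 3 and *Fmr1* siRNA B library 1, the counts were 1 for *Zfp598* siRNA A, 9 between the *Zfp598* siRNAs and 3 for pooled *Zfp598* KD. The next settings were chosen after seeing the data. Without *Zfp598* siRNA A libraries 2 and 3 alone these counts were 1, 8 and 4, and without Scramble siRNA A libraries 1 and 3 they were 5 for *Zfp598* siRNA A and 11 for Scramble siRNA B against A. With the Scramble siRNA of the other letter as control, 10 passed for the *Fmr1* difference, and the reversed values were -0.04 for *Tm7sf2* (*Fmr1*), -0.25 for *Idi1* and -0.65 for *Dhcr7* (*Zfp598*). The cause was not tested, beyond the smaller number of libraries and the exchanged controls. Leaving out each library in turn gave 25 to 28 for *Fmr1* siRNA A, 4 to 18 for *Zfp598* siRNA A, 17 to 20 for the Scramble siRNAs, 21 to 25 for *Fmr1* siRNA B, 14 to 19 for *Zfp598* siRNA B, 28 to 31 between the *Fmr1* siRNAs, 11 to 18 between the *Zfp598* siRNAs, 29 to 31 and 16 to 25 for the differences, 3 to 3 for pooled *Fmr1* KD and 0 to 1 for pooled *Zfp598* KD. Of 45 pairs of libraries with the same replicate number, 9 correlated above 0.1 (all pairs, -0.311 to 0.255). Of 18 libraries, 10 correlated best with a library of their own number. Whether the replicate numbers pair the libraries was not tested. With the replicate number as a block, 29 genes passed for *Fmr1* siRNA A, 29 for *Fmr1* siRNA B, 21 for the Scramble siRNAs and 21 for the *Zfp598* difference. Counts in this section are given without the share of all genes passing under each setting, so they are not set against background. Depth limits the genes of low count, *Fdps*, *Nsdhl*, *Scd1* and *Mvk* among them.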
